A study of Rattus norvegicus with 63 samples.

Results

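A pair of psychostimulants was set against each other in the rat striatum: methamphetamine, which makes nerve terminals release monoamines, and methylphenidate, which blocks their reuptake. The comparison used 3 methamphetamine arrays and 3 methylphenidate arrays, 6 of the 63 arrays of the series, and no control array entered the difference. All were Affymetrix expression arrays of male Wistar rats. Rats in the methamphetamine group received 5 mg/kg methamphetamine by intraperitoneal injection 2 times a day for 7 days from 6 weeks of age, were conditioned with 5 mg/kg of it in a place preference test, and then self-administered it at 0.1 mg/kg per infusion. Rats in the methylphenidate group received 5 mg/kg methylphenidate on the same injection schedule, were conditioned with 5 mg/kg, and self-administered it at 0.25 mg in a 0.1 ml infusion. The injected doses were therefore matched in mg/kg, whereas the infused doses were given in different units and differed. Another pretreated group received amphetamine by the methamphetamine regimen (5 mg/kg injected and conditioned, 0.1 mg/kg per infusion), and the last received saline. Each of these groups has 3 arrays per region, and amphetamine and saline arrays enter here only as context and in the estimate of the spread. Drug-naive groups had received no stimulant before conditioning. The labels give them the same schedule of 2 injections a day for 7 days from 6 weeks of age. These groups enter only in a separate comparison near the end and as context for the glucocorticoid list. The striatal tissue, per the series' description, took in nucleus accumbens as well as rostral caudate putamen and was taken a day after the last self-administration session. The labels do not settle whether an array holds RNA of 1 rat or of a pool, so each p-value below measures only the spread between arrays.

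Methamphetamine enters dopamine, noradrenaline and serotonin terminals, empties the vesicular store and reverses the plasma membrane transporters, whereas methylphenidate binds the dopamine and noradrenaline transporters from outside and lets released transmitter accumulate. Most striatal neurons are medium spiny projection neurons. Those of the direct pathway carry the D1 dopamine receptor and make substance P and dynorphin, and those of the indirect pathway carry the D2 receptor and make enkephalin. Repeated stimulants are known to alter these peptides, the immediate early genes that follow neuronal activity, and the release of glucocorticoids from the adrenal gland.

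Signals are given on a log2 scale, so that a difference of 1 is a doubling. The labelled tissue was borne out by its markers: 9 genes of striatal projection neurons averaged 12.27 to 12.44 on the methamphetamine arrays and 12.09 to 12.32 on the methylphenidate arrays, against 8.22 to 9.54 on the 12 pretreated prefrontal cortex arrays. A set of 7 cortical neuron genes, which would mark cortex caught in the dissection, averaged 6.06 to 6.67 on methamphetamine arrays and 7.12 to 7.68 on methylphenidate arrays, against 8.59 to 9.17 in prefrontal cortex. Over these 7 genes the methylphenidate arrays all read above the methamphetamine arrays, whereas over the wider cortical list of 19 genes described below methylphenidate array 1 (9.88) read like methamphetamine array 1 (9.87). The part of cortical tissue in the results below was not tested. Methamphetamine array 2 correlated least with the other 11 pretreated striatal arrays (mean 0.968). The mean was 0.976 for array 3 and 0.982 for array 1, against 0.977 to 0.983 in the other 3 groups. Methamphetamine array 1 correlated at 0.970 and 0.977 with methamphetamine arrays 2 and 3. Its correlations with methylphenidate arrays 1, 2 and 3 were 0.983, 0.981 and 0.979. The highest correlation between any pair of the 12 arrays was 0.991. Spike-in and RNA quality readings overlapped between the drugs, with a GAPDH 3'-to-5' difference of 0.95 to 1.24 on methamphetamine arrays and 1.07 to 1.17 on methylphenidate arrays.

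No gene passed the test between methamphetamine and methylphenidate. Of 8531 genes tested with limma, 0 (0%) had an adjusted p under 0.05, and the smallest adjusted p was 0.0801. At an unadjusted p under 0.05 there were 982 genes (11.5%), 460 of them higher with methamphetamine (5.39%) and 522 lower (6.12%). The 3 methamphetamine arrays all lay above the 3 methylphenidate arrays for 487 genes (5.71%) and all below them for 521 (6.11%). The median difference over all genes was 0.00, the median size of a difference 0.127 and its median SE 0.138, so a typical gene's 95% interval reached 0.295 to either side. The genes with the smallest p are therefore described by their values, and words such as higher and lower describe only the arrays measured.

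Tac1, which encodes the precursor of substance P and neurokinin A, had the smallest p of the genes higher with methamphetamine. Its level was 12.12, 12.57 and 12.32 on the methamphetamine arrays and 11.38, 11.59 and 11.77 on the methylphenidate arrays. The groups did not overlap, and the difference was 0.76 ± 0.13 (SE), or 1.69-fold (limma adjusted p = 0.0801). Amphetamine arrays read 12.20, 12.13 and 11.91 and saline arrays 12.46, 12.38 and 12.54, so the methylphenidate arrays were the lowest of the 4 groups and the methamphetamine arrays overlapped the saline range. The promoter of Tac1 (RefSeq, GRCr8, chr4:36645333-36645582, plus strand, the 250 bases before the transcript start) is shown because this gene led the higher side, with capitals marking the one motif found among those searched, an E-box (CACGTG) 72 to 67 bases before the start.
Tac1: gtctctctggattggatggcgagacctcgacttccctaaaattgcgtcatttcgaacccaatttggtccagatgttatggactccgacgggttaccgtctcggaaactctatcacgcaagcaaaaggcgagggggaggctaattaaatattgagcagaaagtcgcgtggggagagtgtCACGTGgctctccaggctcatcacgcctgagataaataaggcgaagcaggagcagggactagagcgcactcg
An E-box occurs in 5.59% of the 33469 rat promoters of that length.

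The peptide genes Pdyn, Nts and Penk had smaller differences in the same direction. Pdyn, the dynorphin precursor, read 12.08, 11.82 and 12.14 on methamphetamine arrays and 11.29, 11.59 and 11.91 on methylphenidate arrays. These overlapped, with a difference of 0.42 ± 0.18 (unadjusted p = 0.0362, adjusted p = 0.414). Nts, the neurotensin precursor, read 9.38, 9.45 and 9.68 with methamphetamine and 8.73, 8.74 and 9.49 with methylphenidate, a difference of 0.52. Penk, the enkephalin precursor of the indirect pathway, read 13.58, 13.61 and 13.59 against 13.43, 13.31 and 13.51 on methylphenidate arrays, which did not overlap but differed by only 0.17. The receptors that define the pathways lay closer still. Drd1 differed by 0.06 ± 0.11, with levels of 12.79, 12.54 and 12.45 on methamphetamine arrays that overlapped 12.57, 12.41 and 12.62 on methylphenidate arrays. Drd2 differed by 0.09 ± 0.08. The 95% interval of the Tac1 difference was 0.49 to 1.03. Tac1 was picked for its small p, and the interval does not allow for that choice. Whether Tac1 differed more than the receptor genes was not tested. Adora2a, the adenosine receptor of indirect-pathway neurons, read 12.15, 12.02 and 12.04 with methamphetamine and 11.96, 11.77 and 11.66 with methylphenidate, a difference of 0.27 with no overlap. Ppp1r1b, which encodes the dopamine-regulated phosphatase inhibitor DARPP-32, differed by 0.18 and Cartpt, the precursor of the CART peptide, by -0.03. Over the whole list of striatal projection neuron markers, 20 of 32 tested genes lay above 0, against 51% of all genes, and the median was 0.08. Among 20 neuropeptide and peptide receptor genes, 10 lay above 0. Those with an unadjusted p under 0.05 were Tac1, Pdyn, Nts and the kappa opioid receptor gene Oprk1 (0.65) on the higher side and Vip, Cck and the somatostatin receptor gene Sstr1 (-0.66) on the lower side. Over all genes the shares at that p were 5.39% higher and 6.12% lower.

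Beyond Tac1, the higher side held genes of several kinds. Cbx7, a chromobox protein of Polycomb repressive complexes, read 9.14, 9.59 and 9.61 on methamphetamine arrays and 8.85, 8.74 and 8.76 on methylphenidate arrays. The difference was 0.67 ± 0.13, and the saline arrays (9.33, 9.54 and 9.43) overlapped the methamphetamine arrays. Adgrv1, an adhesion G protein-coupled receptor, read 10.19, 10.94 and 10.53 with methamphetamine and 9.92, 9.57 and 9.79 with methylphenidate, a difference of 0.79 ± 0.16. Tyrobp, the signalling adaptor of microglial receptors such as Trem2, read 9.49, 9.82 and 10.34 against 9.24, 8.87 and 8.75 on methylphenidate arrays, a difference of 0.93 ± 0.19. Aspa, the oligodendrocyte enzyme that cleaves N-acetylaspartate, differed by 0.85, Myh7 (a myosin heavy chain) by 0.65, Neu2 (a sialidase) by 0.67 and Rbp4 (a retinol carrier) by 0.52. None of these genes overlapped between the groups, and the limma adjusted p of those with their SE given ran from 0.135 to 0.171.

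On the lower side, Hspa12a had the smallest p. This gene, an atypical member of the Hsp70 chaperone family, read 10.67, 10.59 and 10.39 on methamphetamine arrays and 11.04, 11.19 and 11.41 on methylphenidate arrays. The difference was -0.66 ± 0.11 (adjusted p = 0.0801). Amphetamine (10.42, 10.46 and 10.50) and saline arrays (10.69, 10.72 and 10.70) lay with or beside the methamphetamine arrays, so that methylphenidate stood above the other 3 groups. Hs3st2, a heparan sulfate sulfotransferase of neurons, read 7.55, 7.06 and 7.45 with methamphetamine and 8.76, 8.68 and 9.67 with methylphenidate. It was 3.21-fold lower with methamphetamine (-1.68 ± 0.27, adjusted p = 0.0801), and its saline arrays (7.54, 7.45 and 6.90) lay at the methamphetamine level while its amphetamine arrays (8.92, 8.12 and 8.40) lay nearer to methylphenidate. Ccnd2, which encodes the cell cycle protein cyclin D2, read 11.35, 10.19 and 10.43 with methamphetamine and 11.70, 11.75 and 11.82 with methylphenidate, a difference of -1.10 ± 0.20. Its methylphenidate arrays again exceeded every amphetamine (10.63 to 10.73) and saline array (10.76 to 10.95), and methamphetamine array 1 lay between. Cdh10 (a cadherin, -0.64), Tox (a transcription factor, -0.88) and Fzd2 (a Wnt receptor, -1.09) completed this group without overlap.

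Prom1 differed in its pattern, since here the methamphetamine arrays were the low group. This gene, which encodes the membrane glycoprotein prominin-1, read 8.85, 7.75 and 8.50 with methamphetamine and 9.80, 9.51 and 9.82 with methylphenidate. The difference was -1.34 ± 0.24, or 2.54-fold lower (adjusted p = 0.100). Its amphetamine arrays (9.21, 9.76 and 9.91) and saline arrays (9.53, 9.90 and 9.62) lay at the methylphenidate level. Abcg2, an efflux transporter of brain capillaries, read 8.13, 6.98 and 8.10 with methamphetamine and 9.03, 9.13 and 9.33 with methylphenidate, a difference of -1.43 ± 0.30. Ddah1, which breaks down methylated arginine (-0.42), and Gpd2, the mitochondrial glycerol-3-phosphate dehydrogenase (-0.55), were the remaining genes among the 10 lower ones.

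**Figure D1:**
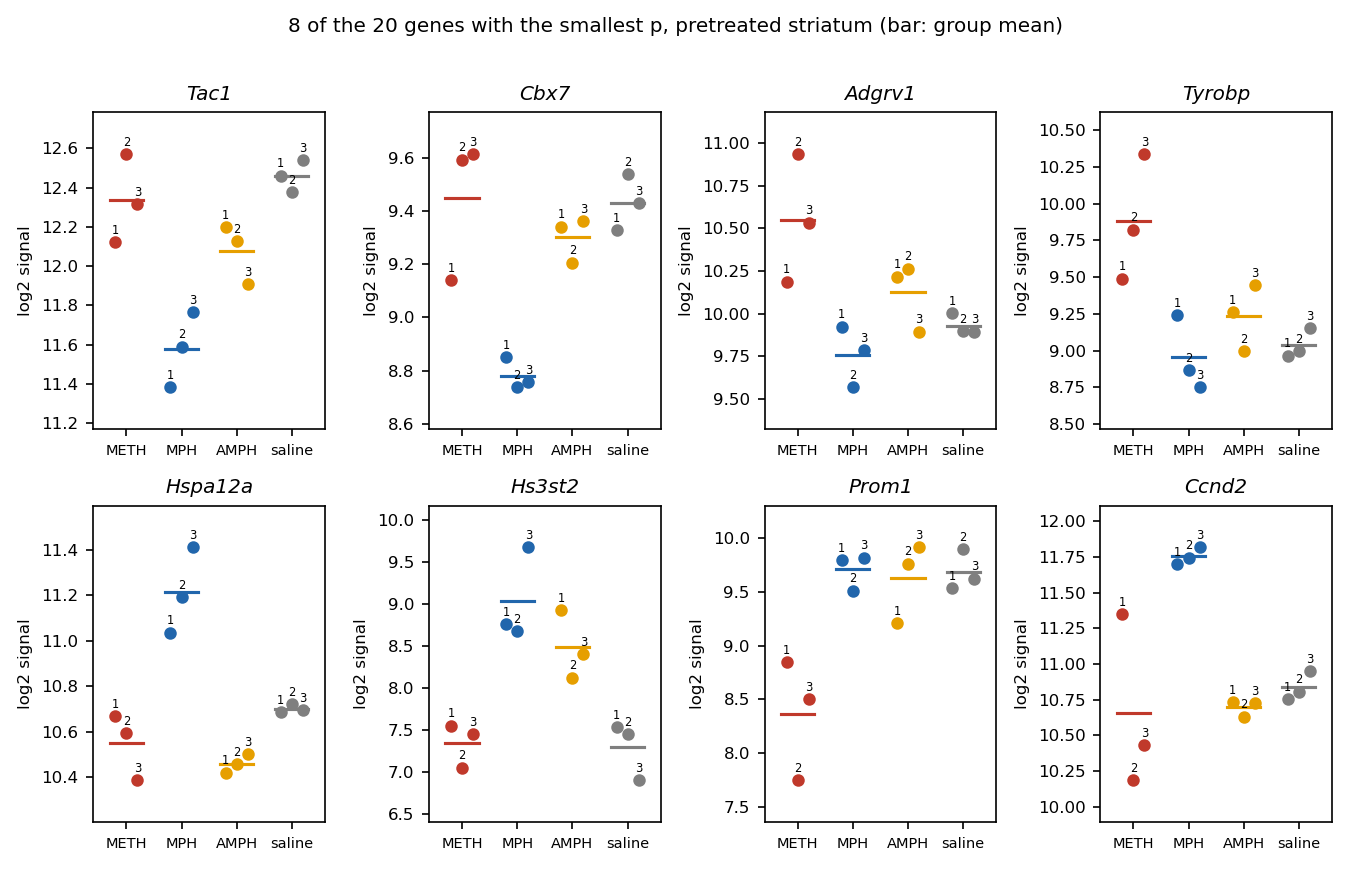
Log2 signal (vertical axis) of 8 genes on each pretreated striatal array of the methamphetamine (METH), methylphenidate (MPH), amphetamine (AMPH) and saline groups, with 3 arrays a group numbered by replicate and a bar at the group mean. For all 8 genes the METH arrays lie to one side of the MPH arrays. For Hspa12a and Ccnd2 the MPH arrays lie above the other 3 groups, and for Prom1 the METH arrays lie below them.

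Genes that make and handle dopamine were only in part measurable in tissue that holds the terminals and not the cell bodies of dopamine neurons: Th, Slc6a3, Slc18a2 and Drd3 were below the signal filter. Of 9 tested genes of the dopamine list, 4 lay above 0 and the median was -0.03. Ddc, which encodes the aromatic amino acid decarboxylase that makes dopamine and serotonin, read 7.21, 6.60 and 7.31 on methamphetamine arrays and 8.21, 7.67 and 8.47 on methylphenidate arrays. The difference was -1.07 ± 0.26 with no overlap (unadjusted p = 0.00102, adjusted p = 0.238), and the saline arrays (8.13, 8.23 and 8.23) lay at the methylphenidate level. Nr4a2, a nuclear receptor best known from dopamine neurons, read 8.49, 8.50 and 8.73 with methamphetamine and 9.33, 9.31 and 9.76 with methylphenidate, a difference of -0.90. Of the monoamine oxidase genes, Maoa differed by -0.11 ± 0.10 and Maob by 0.04 ± 0.11.

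No immediate early gene passed the test a day after the last session. The list had 15 of 28 tested members above 0 and a median of 0.01, which was -0.01 with quantile normalization. At an unadjusted p under 0.05, 4 were lower, against 6.12% of all genes, and 1 higher, against 5.39%. The methamphetamine arrays lay wholly below the methylphenidate arrays for 3 members, against 6.11% of all genes, and wholly above for 1, against 5.71%. Nr4a2, given above, had the lowest difference of this list (-0.90). Fos, the founding member of the AP-1 family, read 8.17, 9.90 and 8.58 with methamphetamine and 8.64, 8.66 and 9.27 with methylphenidate, and the groups overlapped (0.02 ± 0.37). Egr1, a zinc finger factor, differed by -0.28, Arc, which acts at activated synapses, by -0.30, Egr2 by 0.22, Nr4a1 by 0.15 and the scaffold gene Homer1 by 0.02. That Homer1 value is from its probe set with the highest signal. Its other probe sets went the other way, by -0.32, -0.05, -0.32 and -0.53. Methamphetamine array 2 held the highest Fos and Egr2 levels of the 6 arrays (9.90 and 9.58). Fosb and Bdnf were below the signal filter. Ier5 (-0.54) and the prostaglandin synthase gene Ptgs2 (0.60) were the members without overlap that had the smallest p in each direction.

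Genes known to respond to glucocorticoids had the highest median of the 33 lists. Of its 27 tested members 23 lay above 0 (51% of all genes did), and the median was 0.47. At an unadjusted p under 0.05 there were 7 on the higher side, against 5.39% of all genes, and 0 on the lower side, against 6.12%. The methamphetamine arrays lay wholly above the methylphenidate arrays for 1 member, Pnpla2, against 5.71% of all genes. Methamphetamine array 1 differed here from the other methamphetamine arrays. The mean level over the list was 9.75, 10.89 and 10.86 on methamphetamine arrays, 9.92, 10.18 and 10.04 on methylphenidate arrays, 9.93, 10.16 and 9.91 on amphetamine arrays, and 9.66, 9.66 and 9.65 on saline arrays. Methamphetamine arrays 2 and 3 were thus the highest of the 12, while array 1 lay below every methylphenidate array and just above the pretreated saline arrays. Saline arrays of the drug-naive striatum spread more widely, at 9.71, 9.92, 9.97, 10.17 and 10.51. The cause of that spread was not tested. Leaving out each of the 6 arrays in turn gave medians of 0.19 to 0.87, the highest without methamphetamine array 1.

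The promoters of 3 of these genes are shown, chosen after the values were seen: Sult1a1, which had the largest difference, Mt2A, an established steroid and metal target, and Fam107a, the one promoter of the list with a full palindrome. They are from RefSeq (GRCr8) and hold the 250 bases before the transcript start: Sult1a1 is at chr1:190706113-190706362 on the minus strand, Mt2A at chr19:10838709-10838958 on the minus strand and Fam107a at chr15:19046331-19046580 on the plus strand. Capitals mark matches, on either strand, to the glucocorticoid response element palindrome (ACA and TGT spaced by any 3 bases, with a G before and a C after, each 1 base away), its half-site AGAACA, the metal response core TGCACNC, the E-box CACGTG, the cAMP response element TGACGTCA and the AP-1 site TGACTCA. Of the metal core only the form TGCACNC was searched, and stretches with G in place of its A are unmarked.
Sult1a1: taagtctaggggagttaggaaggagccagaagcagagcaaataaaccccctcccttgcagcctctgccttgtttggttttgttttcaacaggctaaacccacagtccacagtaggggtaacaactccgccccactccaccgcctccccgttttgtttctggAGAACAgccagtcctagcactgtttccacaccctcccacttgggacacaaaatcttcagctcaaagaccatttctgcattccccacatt
Mt2A: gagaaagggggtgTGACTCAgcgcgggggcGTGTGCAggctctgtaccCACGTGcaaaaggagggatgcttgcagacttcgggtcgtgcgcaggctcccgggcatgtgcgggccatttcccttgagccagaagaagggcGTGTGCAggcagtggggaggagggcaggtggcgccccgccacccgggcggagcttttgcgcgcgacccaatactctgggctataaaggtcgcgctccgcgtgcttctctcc
Fam107a: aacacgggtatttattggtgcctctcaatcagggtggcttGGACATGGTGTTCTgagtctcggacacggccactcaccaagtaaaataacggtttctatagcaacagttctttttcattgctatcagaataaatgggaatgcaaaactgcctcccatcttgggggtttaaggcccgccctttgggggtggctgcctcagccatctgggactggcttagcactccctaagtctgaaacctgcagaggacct
In Fam107a the palindrome lies 210 to 198 bases before the start and overlaps a half-site at 202 to 197. Sult1a1 holds a half-site at 89 to 84, and Mt2A holds metal cores of the searched form at 220 to 214 and 111 to 105. Of the 27 tested genes of the list, 24 had a promoter in the table, of which 1 held the palindrome in any of its promoters and 4 a half-site, against 0.397% and 18.5% of all 27457 genes with a promoter, counted in the same way. Metal cores of the searched form were in 4, against 11.1% of all genes. A match is a description of the letters and shows no binding.

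Sult1a1, which encodes a phenol sulfotransferase, read 8.03, 11.49 and 11.63 on methamphetamine arrays and 8.05, 9.0 and 8.41 on methylphenidate arrays. The difference was 1.90 ± 0.64 (adjusted p = 0.344). Mt2A, a metallothionein that binds zinc and copper, read 11.75, 13.88 and 13.28 with methamphetamine and 11.67, 12.35 and 11.55 with methylphenidate, a difference of 1.11 ± 0.38. Methamphetamine array 1 lay below the methylphenidate range for Sult1a1 and within it for Mt2A. Pdk4, the kinase that shuts off pyruvate dehydrogenase, read 7.61, 10.59 and 9.90 with methamphetamine and 8.20, 8.78 and 9.05 with methylphenidate, a difference of 0.69 ± 0.52. These genes, like Gjb6, Nfkbia, Ddit4 and Fam107a below, were picked after their values were seen.

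Fkbp5, the co-chaperone that limits glucocorticoid receptor activity, read 10.15, 11.06 and 11.24 with methamphetamine and 10.27, 10.24 and 9.96 with methylphenidate. The difference was 0.66 ± 0.21 (adjusted p = 0.339), and arrays 2 and 3 again lay above and array 1 within the methylphenidate range. Cebpd, a leucine zipper factor of acute responses, read 7.65, 9.50 and 8.75 against 7.54, 7.71 and 7.64 on methylphenidate arrays, a difference of 1.00. Pnpla2, a triglyceride lipase, read 7.89, 9.17 and 8.81 against 7.55, 7.75 and 7.76 on methylphenidate arrays, a difference of 0.94 and the only one of the list without overlap. Cdkn1a, which encodes the cell cycle inhibitor p21, differed by 0.90, Tsc22d3, the leucine zipper protein GILZ, by 0.47, the connexin gene Gjb6 by 0.54, the NF-kappaB inhibitor gene Nfkbia by 0.49 and the mTOR inhibitor gene Ddit4 by 0.50. Sgk1, a kinase that adjusts ion transport, read 10.87, 12.75 and 12.28 with methamphetamine and 11.09, 11.78 and 12.01 with methylphenidate, a smaller difference of 0.34. Fam107a differed by 0.25 and Per1, a clock gene with glucocorticoid elements, by -0.06.

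**Figure D2:**
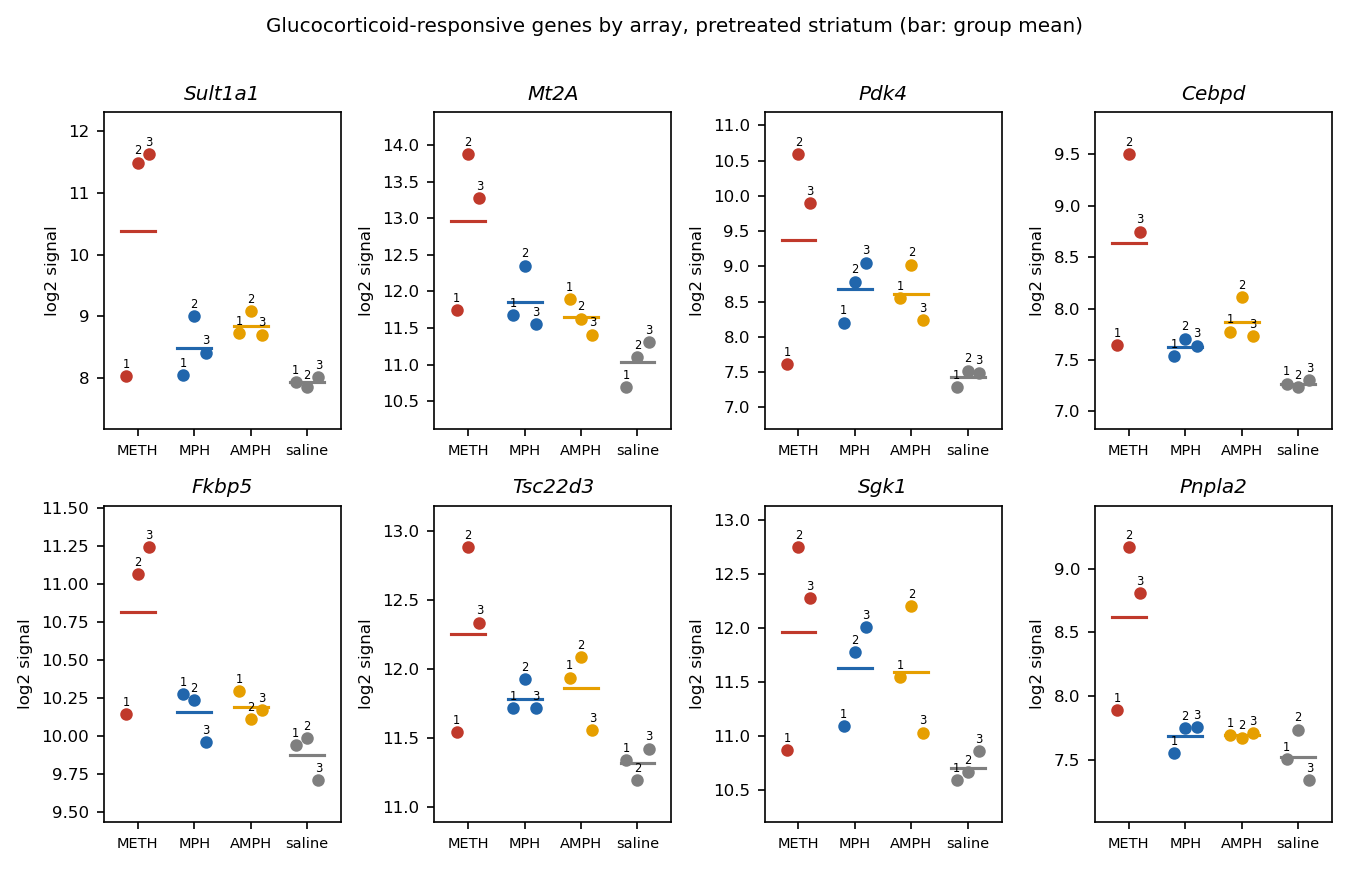
Log2 signal (vertical axis) of 8 glucocorticoid-responsive genes on each pretreated striatal array of the methamphetamine (METH), methylphenidate (MPH), amphetamine (AMPH) and saline groups, numbered by replicate, with a bar at the group mean. METH arrays 2 and 3 lie above the MPH arrays in every panel, and METH array 1 lies within or below the MPH range in every panel but Pnpla2. For Sult1a1 they read 11.49 and 11.63, against 8.03 on METH array 1.

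Leaving out methamphetamine array 1 changed the outcome of the whole comparison. Without it, 130 genes passed (1.52% of 8531), 71 higher (0.832%) and 59 lower (0.692%), and the smallest adjusted p was 6.75e-06, whereas the fit with that array passed 0. Of the 130, 13 were on the glucocorticoid list and 95 were on no list. All 130 had the same sign when the array was kept. Their selection on arrays 2 and 3 made this close to certain, so it is no separate evidence. The 71 higher genes included Sult1a1 (3.07), Mt2A (1.72), Cebpd (1.5), Pdk4 (1.57) and Fkbp5 (0.99). For 50 of those 71 genes, array 1 lay within or below the methylphenidate range. The 6 arrays stayed apart for 52 of the 130, against 11.8% of all genes tested. Of the 52, 21 were higher, Tac1, Cbx7, Adgrv1 and Tyrobp among them. The other 31 were lower, among them Hs3st2, Prom1, Ccnd2 and Hspa12a. Selecting the 130 on arrays 2 and 3 against methylphenidate favours such separation, so the 52 are no separate evidence either. Omitting methylphenidate array 1 passed 0 higher and 4 lower genes: Kcnc2 (-0.94), Hspa12a (-0.75), Vip (-1.59) and Ube2ql1 (-0.88), named because there were only 4. Leaving out any of the other 4 arrays passed 0 genes, with smallest adjusted p values of 0.125 to 0.309 and 680 to 936 genes at an unadjusted p under 0.05. No reading of the labels sets methamphetamine array 1 apart from arrays 2 and 3, and nothing here tests which of them is typical of the group.

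**Figure D3:**
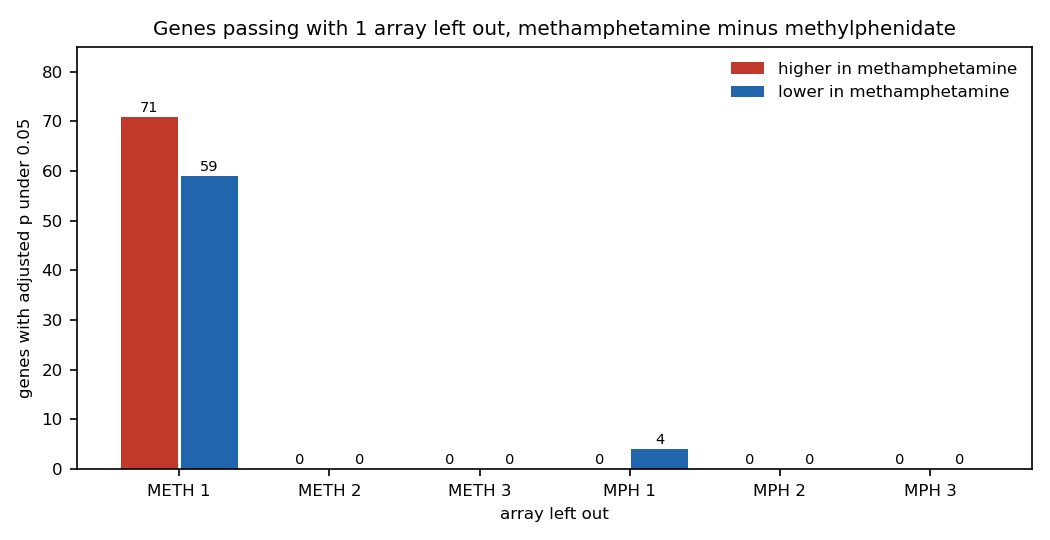
Number of genes with a limma adjusted p under 0.05 (vertical axis) in the methamphetamine (METH) minus methylphenidate (MPH) comparison when the array named on the horizontal axis was left out, with genes higher in methamphetamine in red and lower in blue. Only the fits without METH 1 (71 and 59 genes) and without MPH 1 (0 and 4 genes) passed any gene.

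Vascular genes were the list with the most members apart on the lower side. Of 23 tested endothelial and mural genes 7 lay above 0 and the median was -0.34 (-0.59 to -0.26 over the fits that left out an array). At an unadjusted p under 0.05 there were 8 members lower, against 6.12% of all genes, and 0 higher, against 5.39%. The methamphetamine arrays lay wholly below the methylphenidate arrays for 7 members, against 6.11% of all genes, and wholly above for 1, against 5.71%. The mean level over the list was 8.69, 8.62 and 9.36 on methamphetamine arrays and 9.28, 9.07 and 9.31 on methylphenidate arrays, so array 3 had the highest level of the 6. Slco1c1, the thyroxine carrier of brain capillaries, read 10.06, 8.99 and 9.89 with methamphetamine and 10.52, 10.50 and 10.85 with methylphenidate (-0.98 ± 0.23, adjusted p = 0.224). Emcn, the endothelial surface sialomucin, read 7.79, 7.25 and 7.95 against 8.75, 8.28 and 8.74 on methylphenidate arrays (-0.93 ± 0.20, adjusted p = 0.173). Slco1a4, an organic anion carrier, differed by -0.80 and the transferrin receptor gene Tfrc by -0.34. Mfsd2a, a lipid transporter of brain endothelium, went the other way, with 7.58, 8.90 and 8.84 on methamphetamine arrays and 7.78, 8.13 and 8.12 on methylphenidate arrays. Its difference was 0.43 ± 0.28 with all arrays (adjusted p = 0.560) and 0.86 (adjusted p = 0.0373) without methamphetamine array 1. Cldn5, of the tight junction, differed by -0.23 ± 0.28 and Flt1, a VEGF receptor, by 0.06 ± 0.54, and with errors of this size neither can be told from the list's median. In bulk tissue, fewer cells of a type and less RNA per cell cannot be told apart.

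Microglia, macrophage and complement genes lay the other way. Of 18 tested, 13 were above 0, at a median of 0.26 (0.07 to 0.45 over the fits that left out an array). At an unadjusted p under 0.05, 6 were higher, against 5.39% of all genes, and 0 lower, against 6.12%. The mean level was 9.48, 9.54 and 10.19 on methamphetamine arrays and 9.69, 9.27 and 9.34 on methylphenidate arrays, so the difference lay mainly in array 3. C1qb, a chain of the first complement component, read 9.13, 9.76 and 10.72 with methamphetamine and 9.34, 8.91 and 8.90 with methylphenidate, a difference of 0.82. Lyz2, the lysozyme of phagocytes, read 11.33, 12.52 and 12.67 against 11.49, 11.57 and 11.11 on methylphenidate arrays, a difference of 0.78. Apart from Tyrobp, each of the 6 had at least 1 methamphetamine array within the methylphenidate range.

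Cortical neuron genes had the lowest median of the lists, -0.37 (-0.56 to -0.23 over the fits that left out an array). Of 19 tested, 3 lay above 0, 8 had an unadjusted p under 0.05 lower and 1, the protocadherin gene Pcdh20, higher. Over all genes the shares at that p were 6.12% lower and 5.39% higher. The mean level over these 19 genes was 9.87, 9.83 and 9.79 on methamphetamine arrays and 9.88, 10.55 and 10.33 on methylphenidate arrays, with 10.22, 9.91 and 10.01 on amphetamine and 9.50, 9.81 and 9.25 on saline arrays. Methylphenidate arrays 2 and 3 were the highest of the 12 and array 1 lay at the methamphetamine level. Car10, a carbonic anhydrase-related protein, read 7.77, 7.16 and 7.41 with methamphetamine and 7.84, 9.38 and 9.05 with methylphenidate (-1.31 ± 0.36). Slc17a7, the vesicular glutamate transporter of cortical projection neurons, read 8.66, 6.92 and 7.35 against 8.44, 8.46 and 8.98 on methylphenidate arrays, a difference of -0.98 with overlap through methamphetamine array 1. Cck and Vip, peptides of cortical and interneuron cells, had the same array pattern: Cck read 10.81 to 11.14 with methamphetamine and 11.06, 12.43 and 12.11 with methylphenidate, and Vip 7.81, 7.30 and 7.32 with methamphetamine and 7.03, 9.36 and 8.77 with methylphenidate. Their differences were -0.88 and -0.91.

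Several synaptic lists had medians below 0 as the cortical markers did, and the part of cortical tissue in them was not tested. Of 28 glutamate receptor and postsynaptic scaffold genes 7 lay above 0, at a median of -0.12. At an unadjusted p under 0.05, 8 were lower, against 6.12% of all genes, and 0 higher, against 5.39%. Grin2b, an NMDA receptor subunit, read 8.82, 8.58 and 8.53 with methamphetamine and 9.04, 9.12 and 9.25 with methylphenidate, a difference of -0.49 ± 0.12 with no overlap. Dlgap1, a scaffold protein of the postsynaptic density, differed by -0.50 and Shank1 of the same structure by -0.43. Among 23 synaptic vesicle genes 4 lay above 0 and the median was -0.13; Bsn, the active zone protein bassoon, read 12.40, 12.16 and 12.39 against 12.73, 12.87 and 12.60 on methylphenidate arrays, a difference of -0.41. Among 40 axon guidance genes 8 lay above 0, at a median of -0.13 (-0.23 to -0.06 over the fits that left out an array), led by Plxna4 (-0.52), a semaphorin receptor, and the neuronal adhesion gene Ncam2 (-0.80). Kcnip1, a subunit that modulates A-type potassium channels, went against this pattern with 8.66, 9.27 and 9.51 on methamphetamine arrays and 8.25, 7.59 and 8.23 on methylphenidate arrays, a difference of 1.12 ± 0.35.

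None of the 9 tested neuroblast and subventricular zone genes lay above 0, against 51% of all genes. The median was -0.27 (-0.34 to -0.11 over the fits that left out an array, nearest to 0 without methamphetamine array 2). Dlx1, a homeobox factor of newborn inhibitory neurons, read 8.83, 8.96 and 8.89 with methamphetamine and 9.20, 9.32 and 9.33 with methylphenidate (-0.39 ± 0.11). Sox4 (-0.30) and Dcx, the doublecortin of migrating neurons (-0.31), also did not overlap. The list had 3 members wholly lower with methamphetamine, against 6.11% of all genes. The amphetamine arrays of Dlx1 (8.93, 8.72 and 8.65) and saline arrays (8.98, 8.93 and 9.04) lay below the methylphenidate arrays.

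Other lists had medians nearer to 0. None of 19 circadian clock genes lay above 0, at a median of -0.11. None had an unadjusted p under 0.05 in either direction, against 11.5% of all genes. Dbp differed by -0.26, Nr1d1 by -0.22, and Per2 and Nr1d2 by -0.08 each. Antioxidant genes of the Nrf2 list lay above 0 in 23 of 25 cases with a median of 0.12, among them Gpx1, a glutathione peroxidase (0.32), and Sod2, the mitochondrial superoxide dismutase (0.29). Among 22 cytosolic heat shock genes 13 lay above 0 at a median of 0.04. Cryab, the small heat shock protein alpha B crystallin, read 10.54, 12.15 and 11.74 with methamphetamine and 10.53, 10.90 and 10.28 with methylphenidate, the same pattern over arrays as the glucocorticoid genes. Oligodendrocyte genes had a median of 0.05 and astrocyte genes of -0.09, with Slc1a2, the main glial glutamate transporter, at -0.44 and no overlap. Oxidative phosphorylation genes lay above 0 in 48 of 67 cases (median 0.08) and cytosolic ribosomal protein genes in 30 of 39 (median 0.07). Both medians turned below 0 without methamphetamine array 2, to -0.03 and -0.10, and that of the ribosomal genes also without methylphenidate array 3 (-0.09). Hbb, a haemoglobin chain that marks blood in the tissue, read 12.50, 13.54 and 13.55 with methamphetamine and 12.19, 13.10 and 12.96 with methylphenidate, so array 1 of each drug held the least.

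Of the lists not yet described, most had small medians. The median was -0.04 over 32 genes of cAMP and calcium signalling, 0.01 over 15 GABA genes, -0.09 over 37 ion channel genes, -0.02 over 24 endoplasmic reticulum stress genes and -0.04 over 32 chromatin enzyme genes. Sterol synthesis genes lay above 0 in 5 of 20 cases with a median of -0.18. This median ran from -0.28 to 0.03 over the fits that left out an array and turned above 0 without methamphetamine array 3. Dhcr7, which makes cholesterol from its last precursor, differed by -0.56 with no overlap. Interneuron markers had a median of -0.17 over 13 genes, 3 of them above 0. Markers of tissue at the edge of the dissection rested on few genes: the median was 0.25 over 8 meningeal genes (-0.03 without the signal filter), 0.25 over 6 choroid plexus and ependymal genes, -0.24 over 5 septal, thalamic and hypothalamic genes (0.04 with all probe sets and 0.08 without methamphetamine array 2), 0.09 over 7 accumbens-enriched genes and 0.44 over 3 blood cell genes. Oligodendrocyte precursor genes had a median of -0.04 over 8 genes and serotonin and noradrenaline genes of 0.14 over 3 (-0.12 without the signal filter).

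**Figure D4:**
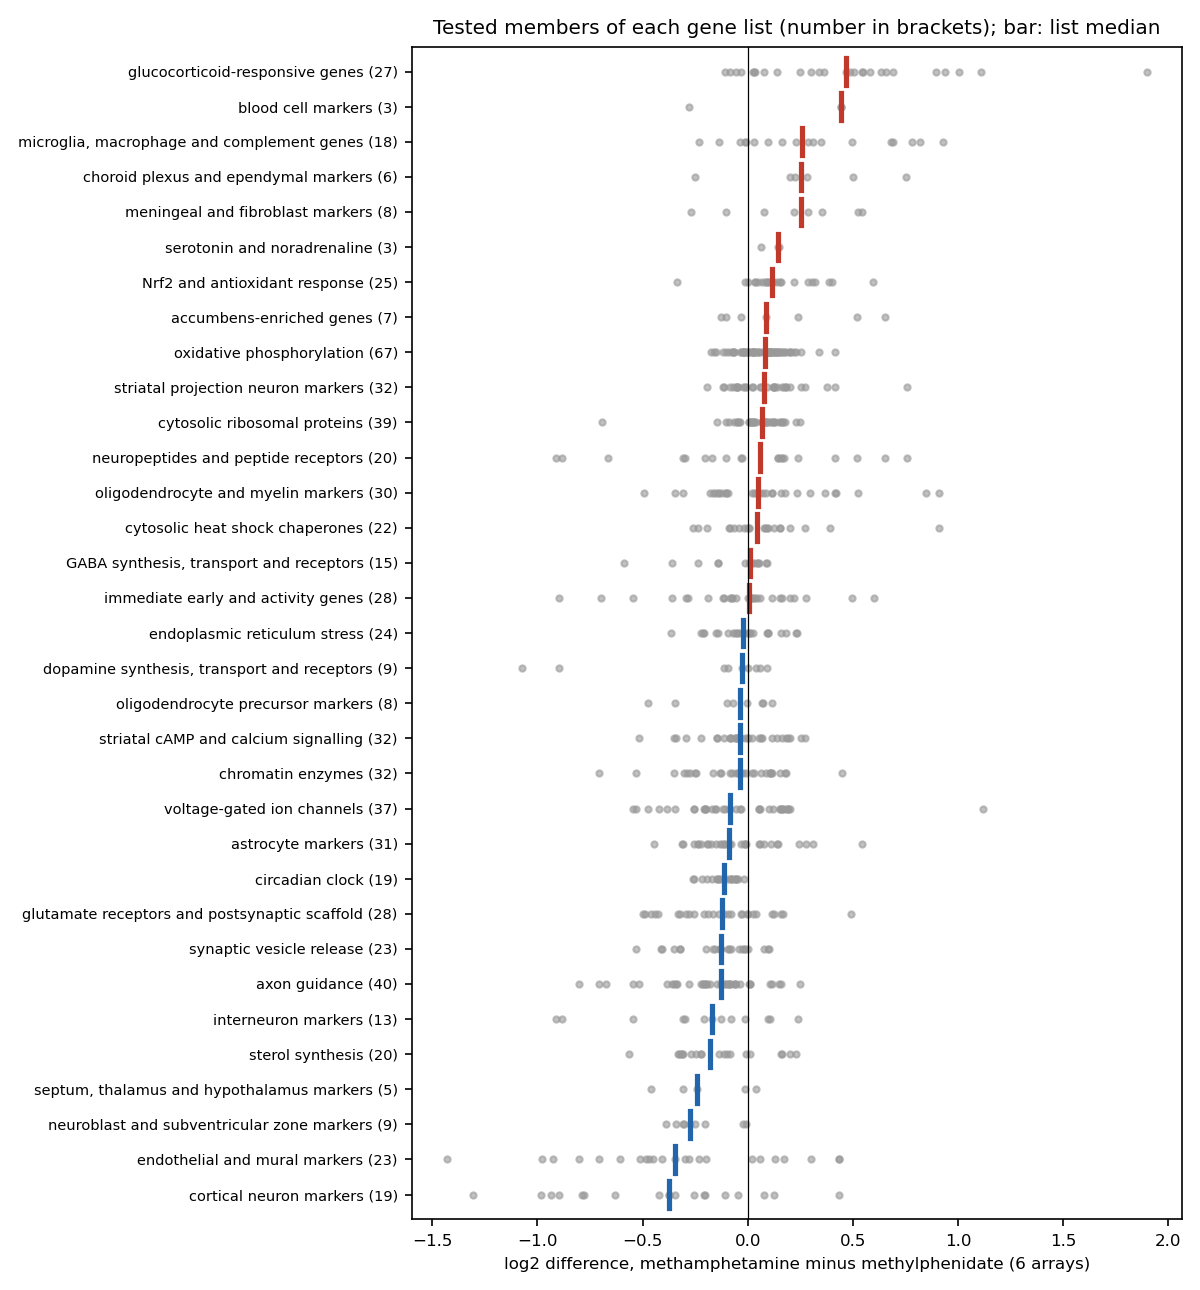
Log2 difference, methamphetamine minus methylphenidate (horizontal axis), of the tested members (grey points) of 33 gene lists, each list's number of tested members in brackets and its median as a bar, red above 0 and blue below. Glucocorticoid-responsive genes have the highest median (0.47) and cortical neuron markers the lowest (-0.37), against 0.00 over all genes.

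**Figure D5:**
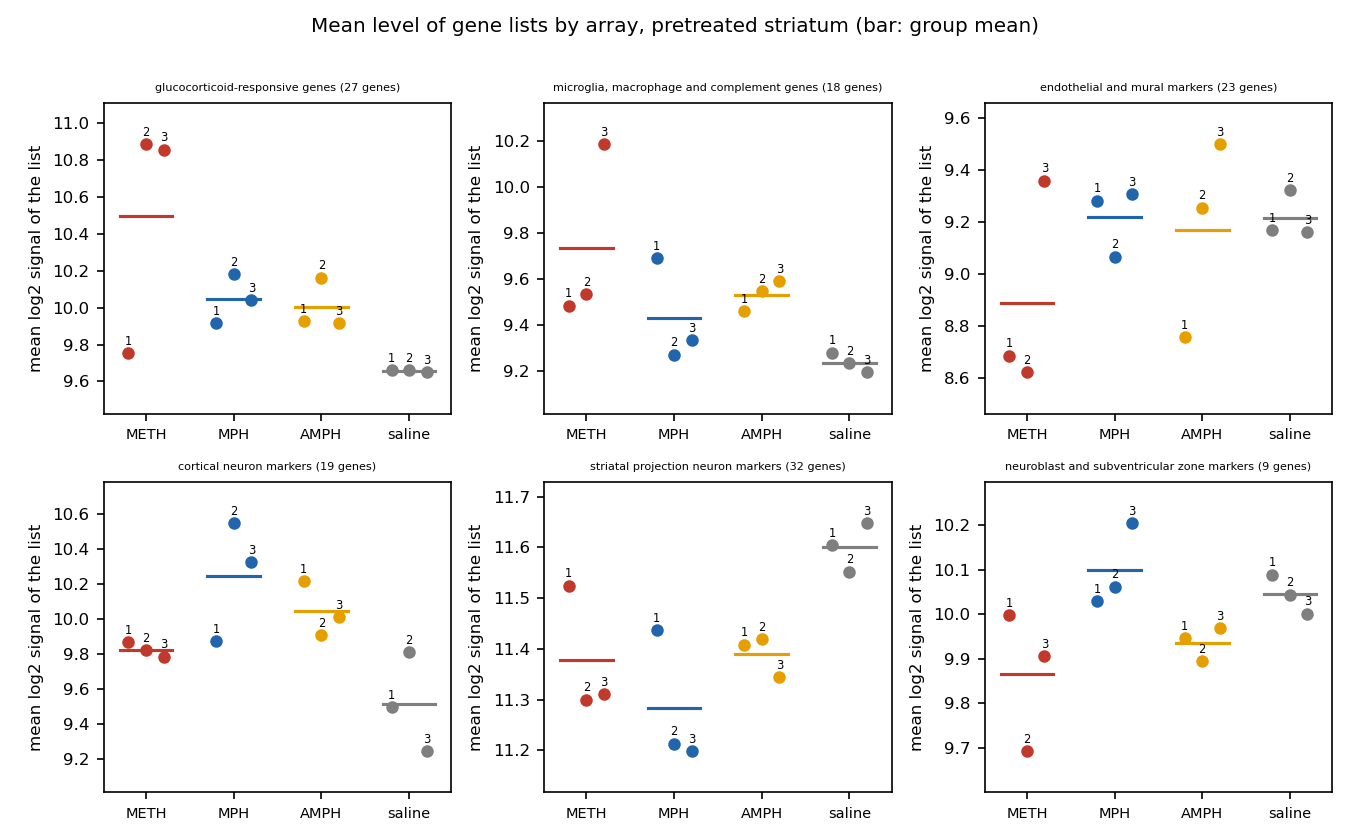
Mean log2 signal (vertical axis) of the tested members of 6 gene lists on each pretreated striatal array of the methamphetamine (METH), methylphenidate (MPH), amphetamine (AMPH) and saline groups, numbered by replicate, with a bar at the group mean. METH arrays 2 and 3 stand highest for the glucocorticoid list (10.89 and 10.86), METH array 3 for the microglial list (10.19), and MPH arrays 2 and 3 for the cortical list (10.55 and 10.33).

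The prefrontal cortex of rats given the same regimens, with 3 arrays a drug, gives the same contrast in another region. Of 8531 genes tested there, 0 passed (0%), 631 had an unadjusted p under 0.05 (7.4%), and the smallest adjusted p was 0.629. Arc read 7.10, 7.65 and 7.38 on methamphetamine arrays and 9.19, 8.22 and 8.39 on methylphenidate arrays, a difference of -1.22 ± 0.24 with no overlap. Tmem100, a membrane protein of endothelium and neurons, differed by -1.26 and Cbs, which makes cystathionine, by -0.56. On the higher side stood LOC100911627 (0.96), Ptprdl (0.63) and Arhgap25 (0.72). The glucocorticoid list had a median of -0.22 there. Its mean level was 9.69, 10.02 and 9.79 on cortical methamphetamine arrays and 10.07, 10.17 and 9.99 on cortical methylphenidate arrays, so the number 1 array was the lowest of the methamphetamine group in both regions. Microglial genes had a median of -0.23, vascular genes of -0.17 and cortical neuron genes of 0.06 in the cortex.

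Testing the difference between the regions over 8243 genes again passed 0 genes (0%), with 507 at an unadjusted p under 0.05 (6.15%) and a smallest adjusted p of 0.462. Hs3st2 had that smallest p. It differed by -1.68 in the striatum and 0.19 in the cortex, a striatum minus cortex difference of -1.87. Tox (-1.01) and the neurturin receptor gene Gfra2 (-1.0) followed on the lower side, and Fkbp5 (0.95), the acetyl-CoA synthetase family gene Acss3 (0.83) and Cir1, a corepressor (0.71), on the higher side. Without striatal methamphetamine array 1, 41 genes passed this test of the difference, and 36 of the 41 were also among the 130 that passed in the striatum without that array. Both fits use the same striatal arrays of these drugs, so the overlap is no separate evidence. Without striatal methylphenidate array 1 the count was 17. Sult1a1 (3.06, adjusted p = 0.000522) and Fkbp5 (1.28, adjusted p = 0.0013) were among the 41.

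Amphetamine differs from methamphetamine by the absence of a methyl group on the nitrogen, and both regimens used the same injected, conditioned and infused doses. The methamphetamine minus amphetamine comparison passed 0 of 8531 genes (0%), with 343 at an unadjusted p under 0.05 (4.02%) and a smallest adjusted p of 0.648; without methamphetamine array 1 it passed 56. A typical gene's 95% interval reached 0.295 to either side, so differences of that size are not excluded. The smallest p values belonged to Prom1 (-1.26, 95% interval -1.77 to -0.76) and Emcn (-1.02, -1.45 to -0.59) on the lower side and to Pnpla2 (0.93, 0.41 to 1.45) on the higher side. For Tac1 the difference was 0.26, with an interval of -0.01 to 0.53, and for Ccnd2 it was -0.04, with an interval of -0.48 to 0.39.

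Amphetamine minus methylphenidate, which shares the methylphenidate arrays with the main comparison, passed 1 gene (0.0117%), with 448 at an unadjusted p under 0.05 (5.25%). Hspa12a was lower by 0.75 with amphetamine than with methylphenidate (limma adjusted p = 0.0375). This call was lost (0 genes) when all probe sets were tested, without the intensity trend, with the replicate block, when all arrays of the region were fitted together, and without any one amphetamine array or methylphenidate array 2 or 3. Ccnd2 differed by -1.06 and Cat, the catalase gene, by 0.69. The infused doses of these drugs also differed, and these 3 pairwise comparisons share arrays, so none is independent of another.

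Rats that had received no stimulant before conditioning give the same pair of drugs at a conditioning dose of 5 mg/kg, with 3 striatal arrays each. Their infused doses differed as in the pretreated rats, at 0.1 mg/kg methamphetamine per infusion and 0.25 mg methylphenidate in 0.1 ml. There 51 of 8531 genes passed (0.598%), 32 higher and 19 lower with methamphetamine, and 1337 had an unadjusted p under 0.05 (15.7%); with the replicate number as a block the count was 102, which held 48 of the 51. The spread of this fit came from all 20 drug-naive striatal arrays. Beside the compared groups these held saline, amphetamine at 1.25 and 5 mg/kg, and methamphetamine at 1.25 mg/kg. Among them 1 array of methamphetamine at 1.25 mg/kg, in neither compared group, read 9.27 for the striatal markers and 9.08 for the cortical ones, against 12.42 to 12.89 and 5.80 to 7.55 on the other 19. Without it 81 genes passed, all 51 among them, an alternative chosen after seeing the data. Among the compared arrays, the count was 10 without methamphetamine array 1, 6 without array 2 and 55 without array 3. It was 0, 3 and 18 without methylphenidate arrays 1, 2 and 3. The BioB spike-in, which does not come from the tissue, read 9.56 to 10.35 on the methamphetamine arrays and 6.24 to 6.68 on the methylphenidate arrays, so drug and array set cannot be told apart there. In the pretreated rats BioB read 9.58 to 10.21 on all 12 striatal arrays. In the drug-naive rats Egr2 was higher by 2.24 with methamphetamine than with methylphenidate (limma adjusted p = 0.00519). It read 9.81, 9.98 and 10.16 on methamphetamine arrays and 7.55, 7.39 and 8.28 on methylphenidate arrays, whereas its difference in pretreated rats was 0.22. Slco1a4 was lower by 1.22 with methamphetamine than with methylphenidate (limma adjusted p = 0.0199), beside a difference of -0.80 in pretreated rats. The chaperone gene Dnajb1 (0.64), the translation factor gene Eif5a (0.80), the RNA-binding protein gene Elavl1 (-1.91) and Cyp51 of sterol synthesis (-0.88) also passed. These 6 genes passed as well with the replicate block and without the array that read like cortex. The glucocorticoid list had a median of 0.05 in drug-naive rats, Tac1 a difference of 0.21 and Hs3st2 of 0.67. Whether any gene's difference changed between drug-naive and pretreated rats was not tested.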

How the data were processed

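The deposited values were linear signal intensities of 31099 probe sets on each of 63 arrays, made by the authors and credited to MAS5 in the submitters' processing notes, which give no version; the trimmed mean of 500.159 to 500.181 on the 6 arrays shows a common scaling. Signals under 1 were set to 1 and log2 was taken. Of the probe sets, 20832 had 1 gene symbol in the platform annotation, 436 several and 9831 none; 20764 matched the RefSeq table. Each gene kept the probe set with the highest mean, and the 40% of the 14218 genes with the lowest mean signal over the arrays of the region were left out. The values were tested with limma 3.58.1 in R 4.3.3 (group means over the 12 pretreated striatal arrays, intensity trend, Benjamini-Hochberg over all tested genes). The prefrontal cortex fit used the 12 pretreated arrays of that region, the difference between regions all 24, and the drug-naive fit 20 striatal arrays. Passing meant an adjusted p under 0.05. The number of arrays limits the precision.

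The 33 gene lists (938 of 1093 entries named on the arrays, 671 genes tested) and the genes described were chosen with earlier results of these data known. The rule for named genes took 10 in each direction by smallest p, a fixed set, up to 4 per list and 3 in each direction of the other comparisons; Cldn5, Flt1, Mfsd2a, Shank1 and Slc17a7, and others so marked in the text, were chosen after their values were seen. Some immediate early genes are not reported here. The gene sequences come from RefSeq (GRCr8), matched by symbol.

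Groups share replicate numbers. Deviations of same-numbered arrays correlated at 0.09, 0.28 and 0.21 in the pretreated striatum, and at 0.16, 0.03 and 0.29 in the cortex. The numbers were not taken as pairs there, and whether they are pairs is not settled. In the drug-naive striatum such deviations correlated at 0.20, 0.36 and 0.44, which gives more ground to pair them. The drug-naive values given come from the fit without the block, with the blocked count beside them. Alternatives were other normalizations, filters, floors, probe set choices, array sets, the replicate block and leaving out each array. The test was checked on simulated data. Figures were drawn with matplotlib 3.10.9 in Python 3.11.15.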

Additional observations from a re-analysis of the deposited data

How the results depend on the processing

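The count of 0 genes between methamphetamine and methylphenidate in the pretreated striatum held under quantile normalization, other filters, an added pseudocount of 22.8, all probe sets, no intensity trend, only the 6 arrays, all arrays of the region and the replicate block (smallest adjusted p with the block 0.130), and changed only with arrays left out: 0 to 71 genes higher and 0 to 59 lower, with 71 and 59 without methamphetamine array 1 and 0 and 4 without methylphenidate array 1. Leaving out an array gave 0 to 56 genes for methamphetamine minus amphetamine, 0 to 41 for the difference between regions, 0 to 1 for amphetamine minus methylphenidate and 0 to 81 in the drug-naive striatum, the highest without the methamphetamine 1.25 mg/kg array that read like cortex, an alternative chosen after seeing the data. Amphetamine minus methylphenidate passed 0 genes with all probe sets, without the trend and with all arrays of the region. The drug-naive count of 51 was 18 with quantile normalization, 14 with no signal filter, 30 without the trend, 2 with only the compared arrays and 134 with all arrays of the region. With the replicate block, in the paired fit, it was 102 and amphetamine minus methylphenidate passed 0; the block changed no other count. In the pretreated striatum, the prefrontal cortex and the drug-naive striatum each methamphetamine array correlated best with its own number, a hint from the data and not from the design. The prefrontal cortex passed 0 genes in each alternative run. With the block its smallest limma adjusted p was 0.147, against 0.629 without it. Genes at an unadjusted p under 0.05 there numbered 1052 with the block and 631 without. The cause of these shifts was not tested.

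Of the 89 genes named with a difference here, 77 kept its sign under every alternative in which they were tested (15 at most), and 42 passed in at least 1. The other 12 changed sign only with an array left out and passed in none of the fits that turned the sign. Leaving out each array gave -0.49 to 0.38 for Fos, -0.41 to 0.74 for Egr2, -0.42 to 0.88 for Flt1, -0.57 to 0.015 for Arc, -0.058 to 0.32 for Nr4a1, -0.081 to 0.086 for Homer1, -0.040 to 0.13 for Drd1, -0.30 to 0.30 for Cartpt, -0.049 to 0.13 for Maob, -0.27 to 0.10 for Per1, -0.37 to 0.19 for Per2 and -0.052 to 0.89 for Sgk1. Of the 33 list medians, 15 kept their sign throughout; 10 of their 363 alternative values moved by more than the spread between arrays. With 3 arrays a group, a single deviant array could be described and not tested.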

Other observations

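Among the 130 genes that passed without methamphetamine array 1, 95 were on none of the lists. Those described here were chosen after their values were seen, and none passed with all 6 arrays. On the higher side, Gpd1, the cytosolic glycerol-3-phosphate dehydrogenase, read 10.15, 12.91 and 12.45 on methamphetamine arrays and 10.35, 11.23 and 10.95 on methylphenidate arrays, against 9.87, 9.99 and 10.13 on saline arrays. Array 1 was again the low one, below all 3 methylphenidate arrays. The difference was 0.99 with all arrays and 1.83 (adjusted p = 0.00201) without array 1. Pex11a, which takes part in peroxisome division, differed by 0.87 with no overlap between the 6 arrays, the lipase gene Lpl by 0.66, and Txnip, the thioredoxin-interacting protein, by 0.64. The autophagy-linked gene Depp1 differed by 1.05 with no overlap, and the interferon-induced gene Ifitm3 by 0.83 with no overlap.

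On the lower side, Tubb5, a beta tubulin, read 11.98, 11.62 and 11.70 on methamphetamine arrays and 12.12, 12.11 and 12.28 on methylphenidate arrays, a difference of -0.40 with no overlap. Hk1, the main hexokinase of brain, read 10.38, 9.96 and 10.13 against 10.52, 10.62 and 10.88 on methylphenidate arrays, a difference of -0.52. Lingo1, a membrane protein that restrains axon growth and myelination, differed by -0.79, and here array 1 (11.80) lay above the lowest methylphenidate array (11.57). The cortical neuron list also had a median below 0, and its part in these values was not tested.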
